A study of Mus musculus with 10 samples.

Results

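The mitochondrial respiratory chain, the mitochondrial ribosome and the machinery that imports proteins into mitochondria were represented by 57 genes of the 5928 named on the array. A gene was included when a probe set carried a single gene symbol beginning with Nduf, Cox and a digit, Atp5, Uqcr, Sdha to Sdhd, Mrpl or Mrps and a digit, or Timm or Tomm and a digit. Each gene was represented by its probe set with the highest mean signal. The rule took genes by name and probe sets by mean signal, and used no measured difference between groups. It was set with earlier results of these data known. The 57 genes fell into 33 genes of the respiratory complexes, 17 of the mitochondrial ribosome (mitoribosome) and 7 of protein import. Among the respiratory genes, 14 belonged to complex I, 4 to complex II, 1 to complex III, 10 to complex IV and 4 to complex V. The symbol rule also admits assembly factors, which help to build a complex without being part of it, and 9 of the 33 were of that kind (Ndufaf3, Ndufaf6, Sdhaf1, Sdhaf2, Sdhaf3, Cox11, Cox16, Cox18 and Cox20). The mitoribosome genes were 10 of the large and 7 of the small subunit, and the import genes were 2 of the inner membrane and 5 of the outer membrane. All 57 matched RefSeq (GRCm38.p6) by gene identifier under the same symbol. They had 74 probe sets in all, and 4 further probe sets with several symbols were left out. Of the probe sets that stood for the 57 genes, 31 had the plain suffix _at, 14 had _r_at, 8 had _i_at and 4 had _f_at. How specific each probe set was for its gene was not tested.

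The study asked which liver genes respond to sterol regulatory element-binding proteins (SREBPs), the transcription factors that control cholesterol and fatty acid synthesis. SREBPs are made as membrane proteins, and SCAP escorts them to the Golgi, where they are cut so that their nuclear forms can act. Liver RNA of 5 male mice per group was pooled in equal parts (20 µg in all) and hybridised in duplicate to Affymetrix MG_U74Cv2 arrays, giving 10 arrays in 5 groups of 2. The Scap-/- group were mice of the genotype Scap-/-;MX1-Cre aged 10 to 12 weeks, fed Teklad chow, given 4 intraperitoneal injections of polyinosinic-polycytidylic acid and killed 14 days after the last one. The Scap wild type group had the same age, chow and injections. MX1-Cre is driven by an interferon-responsive promoter, which polyinosinic-polycytidylic acid switches on, so both groups of that experiment had been exposed to an interferon inducer. The TgSREBP-1a and TgSREBP-2 groups carried transgenes for the nuclear, active forms of human SREBP-1a and SREBP-2. Their wild-type littermates form the SREBP wild type group. The mice of these 3 groups were aged 12 to 16 weeks, and all had been kept for 2 weeks on food high in protein and low in carbohydrate, which raises expression of the transgenes. The duplicates were hybridisations of one pool, so every p-value below measures the spread between hybridisations and not between mice, and n = 2 refers to arrays throughout.

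The respiratory chain passes electrons from NADH and succinate to oxygen through complexes I to IV, and complex V, the ATP synthase, uses the resulting proton gradient to make ATP. A few of its subunits are encoded in mitochondrial DNA and are translated inside the organelle by the mitoribosome. All proteins of the mitoribosome and most subunits of the complexes are encoded in the nucleus, made in the cytosol and imported through the TOM complex of the outer membrane and the TIM complexes of the inner membrane. Hepatocytes are rich in mitochondria, and the organelle also supplies the citrate from which the liver makes the fatty acids and sterols that SREBPs control. Nuclear respiratory factor 1 (NRF1), ETS-family factors, YY1 and oestrogen-related receptors (ERRs) are known regulators of nuclear genes for mitochondria.

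What the genes shared beyond their names was examined in the promoter windows of RefSeq (GRCm38.p6), which run from 250 bases before to 50 bases after each annotated start and covered 49 of the 57 genes. The YY1 letters aagatggcg, read on both strands, stood in the windows of 8 of the 49 genes (16.3%), against 2.69% of the 4681 array genes with a window and 1.64% of the 27025 genes in the table. They are printed here because they stand in genes of all 3 subgroups. In 7 of the 8 genes the letters began 11 to 35 bases after the start and read in the direction of transcription, and in Mrps11 they lay on the opposite strand at -108 from the start. Of the 126 array genes with the letters 77 (61.1%) also had them after the start, and the difference in placement was not tested. The letters contain atg, and whether a protein-coding sequence begins there was not tested. Capitals mark the match, and each stretch is written in the direction of its gene.
Ndufa9: ttgtgggagAAGATGGCGgccgccgtc
Ndufc1: ctgcggaacAAGATGGCGccgtccgta
Ndufs4: gcctacaggAAGATGGCGgcggtc
Atp5j2: caggacttcAAGATGGCGtcactcggt
Mrpl35: gcaggctgcAAGATGGCGgcttccatc
Mrps18a: gtgcgttccAAGATGGCGgccctcagg
Timm50: cgtcagcgcAAGATGGCGgcctcggcg
Mrps11: tacgggcgcCGCCATCTTtctgtcttc

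These stretches lie at chr6:126849098-126849124 (minus strand) for Ndufa9, chr3:51408916-51408942 (minus) for Ndufc1, chr13:114388045-114388068 (minus) for Ndufs4 and chr5:145191501-145191527 (minus) for Atp5j2. Those of the other genes lie at chr6:71823744-71823770 (minus) for Mrpl35, chr17:46111006-46111032 (plus) for Mrps18a, chr7:28312018-28312044 (minus) for Timm50 and chr7:78783014-78783040 (plus) for Mrps11.

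The ETS core letters ccggaag, again on both strands, stood in 18 of the 49 windows (36.7%), against 15.7% of the array genes and 9.93% of the table. By subgroup the share was 37.9% of 29 respiratory genes, 35.7% of 14 mitoribosome genes and 33.3% of 6 import genes. The NRF1 core gcgcatgcg stood in 2 windows (4.08%), against 3.33% of the array genes. In both genes it also matched the other strand 1 base along, and the overlapping pair was counted as 1 place. The ERR letters tcaaggtca stood in Sdhd alone (2.04%, against 0.427%). The stretches shown, with the ETS or NRF1 letters in capitals, are from a gene of each subgroup with the ETS letters, from the import receptor Tomm70a with 2 separate matches, and from both genes with the NRF1 letters.
Sdhd (ETS): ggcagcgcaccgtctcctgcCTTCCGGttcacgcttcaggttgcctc
Mrps18a (ETS): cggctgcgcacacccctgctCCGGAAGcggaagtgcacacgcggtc
Tomm22 (ETS): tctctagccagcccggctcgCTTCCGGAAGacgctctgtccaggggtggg
Tomm70a (ETS): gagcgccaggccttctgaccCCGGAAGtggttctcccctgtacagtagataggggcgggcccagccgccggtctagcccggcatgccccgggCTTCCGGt
Atp5g2 (NRF1): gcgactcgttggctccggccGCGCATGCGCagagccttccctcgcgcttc
Mrpl39 (NRF1): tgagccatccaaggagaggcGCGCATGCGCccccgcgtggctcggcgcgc

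In Tomm22 the matches on the opposite strands overlap by 4 bases. The stretches lie at chr9:50603869-50603915 (minus strand) for Sdhd, chr17:46110958-46111003 (plus) for Mrps18a, chr15:79670801-79670850 (plus) for Tomm22, chr16:57121614-57121713 (plus) for Tomm70a, chr15:102671060-102671109 (minus) for Atp5g2 and chr16:84735340-84735389 (minus) for Mrpl39. The sterol element letters tcacnccac, where n is any base, matched none of the 49 windows and 1.39% of the array genes. They also matched no window of Nsdhl, Pmvk or Tm7sf2, the cholesterol synthesis genes that moved most clearly on these arrays, so the absence of these letters from the window was not read further. The windows of the 49 genes held a median of 20.25 CG dinucleotides, against 18 for array genes and 7 for the table, and the part of base composition in the shares of the YY1, ETS and NRF1 letters, which all hold a CG, was not tested. The motif matches are descriptions of the letters and not binding sites.

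The 10 arrays were similar in overall level, with median log2 signals of 4.69 to 4.77, and duplicates correlated at 0.992 to 0.995 over all 11868 probe sets tested. The 3′ control probe set for 18S rRNA ranged from 7.19 to 9.88 and was brighter on replicate 2 than on replicate 1 in all 5 groups. No probe set was named Scap, Srebf1 or Srebf2, so the genotypes were checked only through responding genes. Nsdhl, a cholesterol synthesis enzyme, fell by 2.47 (log2) in Scap-/- liver (adjusted p 0.00623) and rose by 3.12 with TgSREBP-1a (0.000192) and 3.498 with TgSREBP-2 (0.000171). Of 21 hepatocyte markers 3 were measured: Fga, a fibrinogen chain, had group means of 8.38 to 9.41, while Ahsg (2.72 to 3.02) and Serpina1a (3.23 to 3.58) were dim on this array. The mean log2 signal of the 3 was 4.81 to 4.84 on the TgSREBP-1a arrays, below the 5.09 to 5.46 of SREBP wild type without overlap, 4.87 to 5.10 in TgSREBP-2, 5.08 to 5.19 in Scap-/- and 5.06 to 5.09 in Scap wild type. None was called. With TgSREBP-1a Fga differed from SREBP wild type by -1.04 (adjusted p 0.0665) and Serpina1a by -0.34 (adjusted p 0.268). Of 19 pancreatic acinar markers 6 were measured, with a mean log2 signal of 4.08 to 4.22 on the Scap-/- arrays, 4.89 to 5.06 in Scap wild type, 5.27 to 5.55 in SREBP wild type, 4.23 to 4.25 in TgSREBP-1a and 5.85 to 6.01 in TgSREBP-2. Against wild type 2 of the 6 were called lower with Scap loss, 3 lower with TgSREBP-1a and 2 higher with TgSREBP-2. Between the transgenics 3 were called lower with TgSREBP-1a, and between the wild types 1 was called lower in Scap wild type. The share called over all probe sets was at most 1.04% in any comparison. Cpa1 was the lowest of the 6 with Scap loss (-2.86, adjusted p 0.000152, limma) and with TgSREBP-1a (-4.39, adjusted p 7.04e-07). Both measured markers of Kupffer cells (of 14), Laptm5 and Vsig4, rose with TgSREBP-1a (by 1.05 and 1.14), and their mean log2 signal was 9.0 to 9.08 there against 7.73 to 8.17 in SREBP wild type. With TgSREBP-2 it was 8.48 to 8.69, also without overlap, and the differences of 0.54 and 0.74 were not called (adjusted p 0.417 and 0.406). The Scap wild type arrays had 8.29 to 8.47 and the Scap-/- arrays 8.17 to 8.60. The part of these other cells in the values below was not tested, and in whole liver RNA fewer cells of a type and less RNA per cell cannot be told apart.

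The signals of the 57 genes ran from 2.71 to 9.79 on the log2 scale as means over the 10 arrays. Their median was 5.22, against 5.16 for all 5928 genes, and 36 of the 57 were brighter than the median probe set of the array (4.74). The median was 5.50 for the respiratory genes, 5.18 for the mitoribosome and 4.45 for import, but the brightness of different probe sets depends on their probes and is not a ranking of transcripts. The brightest respiratory genes were Cox5a, a nuclear-encoded subunit of cytochrome c oxidase (9.79), and Ndufs8, an iron-sulphur core subunit of complex I (9.28). The dimmest were the assembly factors Sdhaf3 (2.71) and Cox16 (2.79). In the mitoribosome Mrpl38 (8.86) and Mrps31 (8.0) were brightest and Mrpl35 (3.19) and Mrpl54 (3.34) dimmest. In the import group Tomm40, the channel of the outer membrane (9.71), and Timm17b, part of the inner membrane channel TIM23 (7.70), were brightest, and Timm50, a TIM23 receptor (3.09), and Tomm22, a central TOM receptor (3.65), were dimmest. Cox6b2, Cox7b2 and Cox8c, whose products are known as testis forms of complex IV subunits, gave signals of 5.38, 5.50 and 5.53, so a mid-range signal on this array is not by itself evidence of expression in liver. Further probe sets of Cox8c gave 2.86 and 2.70.

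**Figure D1:**
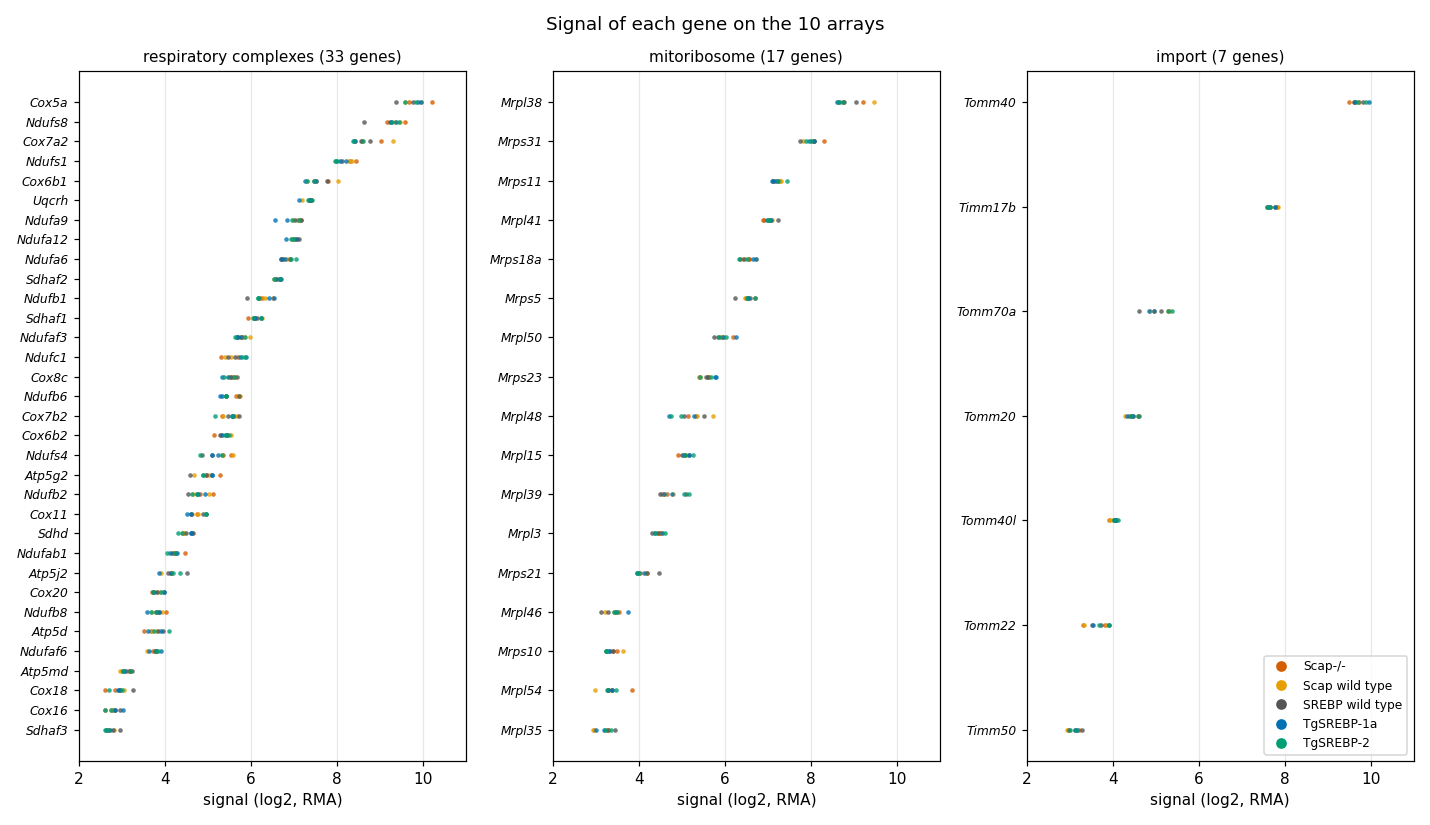
Log2 signal (horizontal axis) of each of the 57 genes on the 10 arrays, in 3 panels for the respiratory complexes, the mitoribosome and import; each point is an array, coloured by group. For each gene the 10 points lie close together compared with the spread between genes, which runs from 2.71 for Sdhaf3 to 9.79 for Cox5a as means.

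None of the 57 genes was called in any of the 5 comparisons, where a call required an adjusted p under 0.05 (limma, Benjamini-Hochberg over all 11868 probe sets) and a difference of at least 1.5-fold. Over all probe sets the calls were 0.0843% for Scap-/- against Scap wild type, 1.04% for TgSREBP-1a and 0.118% for TgSREBP-2 against SREBP wild type, 0.514% for TgSREBP-1a against TgSREBP-2 and 0.0927% for Scap wild type against SREBP wild type. At these rates few or no calls among 57 genes would be the background level, so the count of 0 does not set the genes apart. A moderated F test over the 5 groups called none of the 57 either, against 1.39% of all probe sets. At an unadjusted p under 0.05, limma gave 2 genes for Scap loss (background 3.8%), 7 for TgSREBP-1a (9.4%), 5 for TgSREBP-2 (6.34%), 9 for TgSREBP-1a against TgSREBP-2 (7.74%), 4 between the wild types (7.26%) and 8 by the F test (11.1%). These shares of the 57 genes (3.51%, 12.3%, 8.77%, 15.8%, 7.02% and 14.0%) were below the background for Scap loss and between the wild types and above it elsewhere, at most 15.8% against 7.74%. No test was made of these shares.

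The estimates also bounded the differences. The largest of the 285 differences (57 genes in 5 comparisons) was 1.39-fold, for Ndufs4 between the wild types, and the share of all probe sets that reached 1.5-fold was 0.27%, 1.76%, 0.624%, 1.06% and 0.683% in the 5 comparisons in the order above. That bound rested on single arrays: with one array left out the largest difference of a member came to 0.67 (log2) for Scap loss without Scap-/- replicate 2, and to 0.69, 0.73 and 0.77 for TgSREBP-1a, TgSREBP-2 and the wild types without SREBP wild type replicate 1. The 95% interval lay within 1.5-fold either way for 245 of the 285 differences (86.0%) and within 2-fold for all of them, the most extreme bound being 1.85-fold. By comparison the count within 1.5-fold was 54 of 57 for Scap loss (background 94.8%), 46 for TgSREBP-1a (90.4%), 47 for TgSREBP-2 (92.6%), 49 for TgSREBP-1a against TgSREBP-2 (91.8%) and 49 between the wild types (92%). As shares of the 57 genes these were 94.7%, 80.7%, 82.5%, 86.0% and 86.0%, near the background for Scap loss and below it in the other comparisons. Within 2-fold lay the intervals of all 57 genes in each comparison, against 99.6%, 98.3%, 99.3%, 99% and 99.1% of all probe sets. The SE of a difference had a median of 0.118 (log2) for the 57 genes and 0.115 for all genes. The intervals cover hybridisation error only, so they do not bound the difference between mice.

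**Figure D2:**
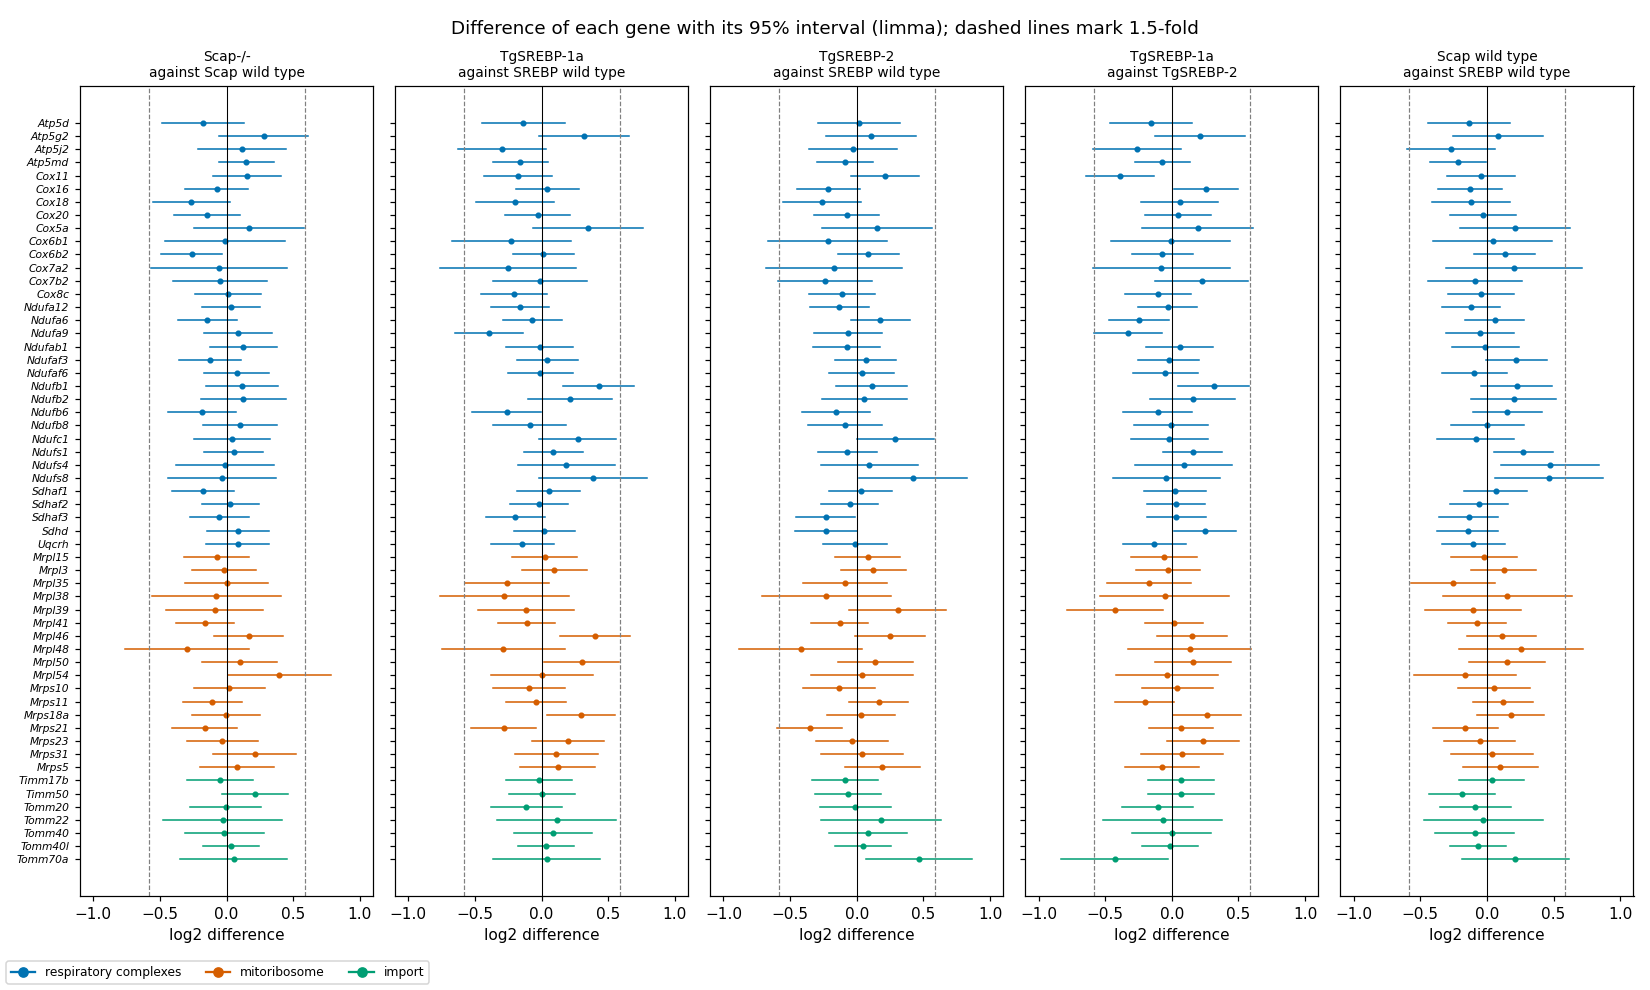
Log2 difference (horizontal axis, point) of each of the 57 genes in each of 5 comparisons, with its 95% interval from limma (line) and coloured by subgroup; dashed lines mark 1.5-fold. No point reaches a dashed line, and 245 of the 285 intervals lie wholly between them.

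The medians of the 3 subgroups lay close to one another and to that of all genes. With Scap loss the median log2 difference was 0.03 for the respiratory genes, -0.02 for the mitoribosome and -0.01 for import, against 0.01 for all genes. With TgSREBP-1a the medians were -0.02, 0.00 and 0.03 against -0.02. With TgSREBP-2 they were -0.05, 0.04 and 0.05 against -0.00. Between the transgenics they were -0.01, 0.02 and -0.02 against -0.02, and between the wild types -0.03, 0.05 and -0.06 against -0.02. The comparisons with TgSREBP-1a and TgSREBP-2 share the SREBP wild type arrays. Genes above and below 0 were nearly balanced as a whole, with 27 of the 57 above 0 for Scap loss, 27 for TgSREBP-1a, 28 for TgSREBP-2, 26 between the transgenics and 27 between the wild types. Among the 36 genes brighter than the median probe set the counts above 0 were 16, 19, 21, 16 and 23 in that order. Among the 21 dimmer genes they were 11, 8, 7, 10 and 4. Between the wild types the brighter genes thus lay mostly above 0 (median 0.07) and the dimmer genes mostly below (median -0.12). Of all 5928 genes 2656 lay above 0 between the wild types, but they were not split by level. Whether the split by level is particular to these genes was therefore not tested. Between the 5th and 95th percentiles of all genes lay 52, 48, 49, 51 and 52 of the 57 in that order. By construction about 5% of all genes lie beyond each end of that band. Below it lay 3, 5, 4, 4 and 2 of the 57, and above it 2, 4, 4, 2 and 3. These counts were not tested.

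**Figure D3:**
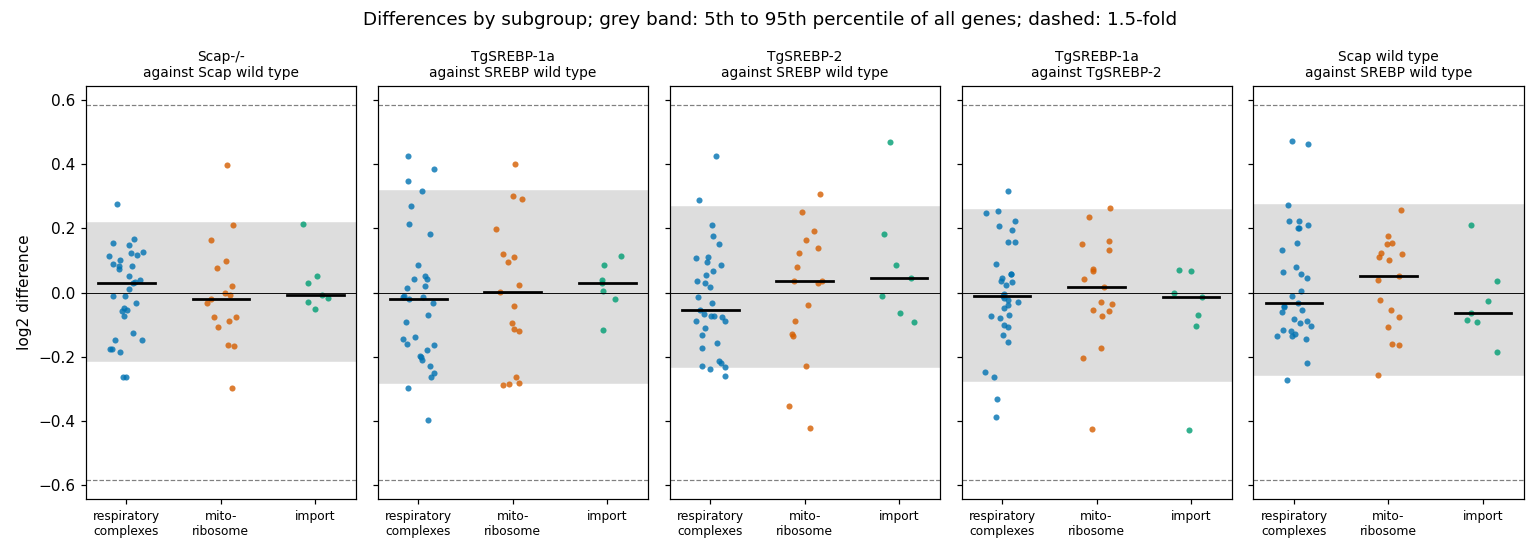
Log2 differences (vertical axis) of the respiratory, mitoribosome and import genes in each of 5 comparisons; each point is a gene, the black line is the subgroup median, the grey band spans the 5th to 95th percentile of all genes and dashed lines mark 1.5-fold. The subgroup medians lie between -0.06 and 0.05, and most points lie in the grey band, which by construction holds most of all genes.

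Duplicates set the scale for these differences. The median absolute difference between the duplicates of a group was 0.12 to 0.18 for the 57 genes and 0.11 to 0.14 for all genes. The range of the 5 group means had a median of 0.26 for the 57 genes and 0.22 for all genes. It was 0.26 for the respiratory genes, 0.28 for the mitoribosome and 0.19 for import. One of the 57 genes, Mrpl48, had group means that spanned 1.5-fold or more, against 5.80% of all genes. The arrays of the groups did not overlap for 17 of 57 genes with Scap loss (background 29.7%), 25 with TgSREBP-1a (39.4%), 20 with TgSREBP-2 (35%), 20 between the transgenics (37%) and 19 between the wild types (37.5%). With 2 arrays a group such separation is frequent, and the counts were near the background in all 5.

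Among the respiratory complexes, complex I takes electrons from NADH. Of its 14 genes 6 had an unadjusted F-test p under 0.05 (42.9%, against 11.1% of all probe sets), and no gene of complexes II to V did. No test compared the complexes. The range of the group means had a median of 0.35 for complex I, against 0.21 for complex II, 0.27 for complex IV and 0.31 for complex V, and single genes overlapped, with a range of up to 0.47 in complex I and 0.45 in complex IV. Complex I genes did not move one way, with medians of 0.05, 0.02, 0.05, -0.02 and 0.11 in the 5 comparisons.

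Ndufs1, the largest core subunit of complex I, had the highest F statistic of the 57 genes. Its log2 signal was 8.45 and 8.31 on the Scap-/- arrays, 8.29 and 8.36 in Scap wild type, 8.13 and 7.98 in SREBP wild type, 8.20 and 8.08 in TgSREBP-1a and 8.0 and 7.96 in TgSREBP-2. All 4 arrays of the Scap experiment were above all 6 of the transgene experiment. The F test gave p 0.0088 and adjusted p 0.222 (limma), and Scap wild type exceeded SREBP wild type by 0.27 (SE 0.10, adjusted p 0.627). A dimmer probe set of Ndufs1 differed in the same direction between the wild types, by 0.74 (SE 0.31), with overlapping arrays. On that probe set TgSREBP-1a (mean 4.37) also lay above SREBP wild type (3.78), by 0.58 (SE 0.31), and near Scap wild type (4.53). The experiments differed in diet, age and injections, which cannot be told apart.

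Ndufs4 and Ndufs8 showed the largest differences between the wild types. Ndufs4, an accessory subunit of complex I, measured 5.54 and 5.35 in Scap-/-, 5.59 and 5.32 in Scap wild type, 5.09 and 4.87 in SREBP wild type, 5.09 and 5.24 in TgSREBP-1a and 4.81 and 5.34 in TgSREBP-2. The difference between the wild types was 0.47 (SE 0.17, adjusted p 0.589), and the TgSREBP-2 duplicates themselves differed by more than that. Ndufs8 measured 9.58 and 9.16, 9.46 and 9.35, 9.24 and 8.64, 9.39 and 9.26, and 9.45 and 9.28 in the same order of groups. The low array was SREBP wild type replicate 2, and the other 9 arrays lay between 9.16 and 9.58. The Ndufs8 difference was 0.46 between the wild types and 0.42 for TgSREBP-2 against SREBP wild type (adjusted p 0.645 and 0.783), the largest positive respiratory difference with TgSREBP-2. Both rest on the same SREBP wild type pair.

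Ndufb1 and Ndufa9 gave the largest respiratory differences with TgSREBP-1a, in opposite directions. Ndufb1, a small membrane-arm subunit, measured 6.52 and 6.25 in Scap-/-, 6.34 and 6.21 in Scap wild type, 6.18 and 5.92 in SREBP wild type, 6.54 and 6.42 in TgSREBP-1a and 6.15 and 6.17 in TgSREBP-2. It was higher with TgSREBP-1a than in SREBP wild type by 0.43 (SE 0.12, unadjusted p 0.00483, adjusted p 0.195) and higher than with TgSREBP-2 by 0.32 (adjusted p 0.519). The TgSREBP-1a arrays overlapped those of Scap-/-, which reached 6.52. Ndufa9, a subunit that lies near the junction of the peripheral and membrane arms, measured 7.16 and 7.11, 7.11 and 6.99, 7.17 and 7.04, 6.85 and 6.57, and 7.12 and 6.95 in the same order of groups. The TgSREBP-1a pair was the lowest of the 5 groups and overlapped none of the others. Its difference from SREBP wild type was -0.40 (SE 0.12, adjusted p 0.211) and from TgSREBP-2 -0.33 (adjusted p 0.447).

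**Figure D4:**
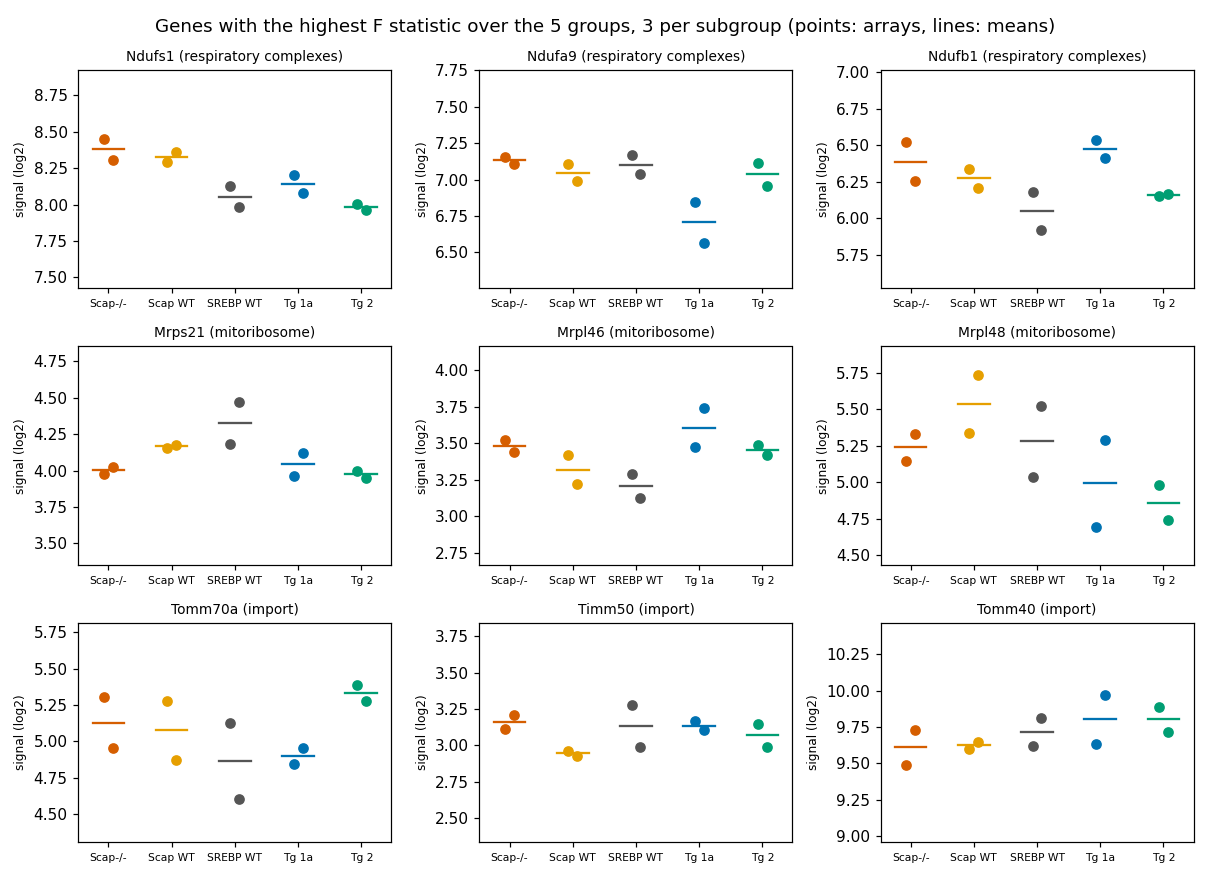
Log2 signal (vertical axis) by group for the 3 genes of each subgroup with the highest F statistic over the 5 groups; points are arrays and lines are means of 2 arrays. Every vertical axis spans the same number of log2 units, and the ranges of the group means (at most 0.68, for Mrpl48) are close to the distance between duplicates in several panels.

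The other respiratory genes at the ends of the comparisons differed less. With Scap loss the ends were Atp5g2, which encodes the c-ring subunit of ATP synthase (0.28, SE 0.15), and Cox18, an assembly factor of complex IV (-0.26), with Cox6b2 at nearly the same value (-0.26, unadjusted p 0.0276, adjusted p 0.999). Cox18 was also lowest with TgSREBP-2 (-0.26). Between the transgenics the lowest was Cox11, a copper-delivering assembly factor of complex IV, at -0.39 (SE 0.12, adjusted p 0.325). Cox11 measured 4.88 and 4.61 in SREBP wild type, 4.61 and 4.52 in TgSREBP-1a and 4.96 and 4.94 in TgSREBP-2. The transgenics did not overlap, and both SREBP wild type arrays lay between the lowest TgSREBP-1a and the highest TgSREBP-2 array. Between the wild types the lowest was Atp5j2, a membrane subunit of ATP synthase, at -0.27. The brightest gene, Cox5a, measured 10.21 and 9.69 in Scap-/-, 9.96 and 9.60, 9.77 and 9.37, 9.96 and 9.88, and 9.85 and 9.59 in the other groups in order, so replicate 1 was the higher in every group.

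Mrpl48 stood at an end of 4 of the 5 comparisons among the mitoribosome genes. It encodes a large-subunit protein and measured 5.15 and 5.33 in Scap-/-, 5.34 and 5.73 in Scap wild type, 5.04 and 5.52 in SREBP wild type, 4.69 and 5.29 in TgSREBP-1a and 4.98 and 4.74 in TgSREBP-2. It was the lowest mitoribosome gene with Scap loss (-0.30), TgSREBP-1a (-0.29) and TgSREBP-2 (-0.42, SE 0.21) and the highest between the wild types (0.26). In 4 of the 5 groups replicate 2 was the higher, by up to 0.60, and TgSREBP-1a overlapped SREBP wild type. Its F test gave p 0.0583 and adjusted p 0.476 (limma). With a replicate block in which the TgSREBP-2 numbers were crossed, an alternative chosen after seeing the data, the adjusted p was 0.0357 and the gene was called. With the numbers as labelled, the block gave 0.185.

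Mrpl46 and Mrps21 had lower p-values. Mrpl46, a large-subunit protein, measured 3.53 and 3.44, 3.42 and 3.22, 3.29 and 3.12, 3.47 and 3.74, and 3.49 and 3.42 from Scap-/- to TgSREBP-2. It was higher with TgSREBP-1a than in SREBP wild type by 0.40 (SE 0.12, adjusted p 0.212), at a signal in the dim part of the array. Mrps21, a small-subunit protein, measured 3.98 and 4.03, 4.15 and 4.18, 4.18 and 4.47, 3.96 and 4.12, and 4.0 and 3.95 in the same order. It was lower than SREBP wild type with TgSREBP-2 by 0.35 (SE 0.11, unadjusted p 0.00839, adjusted p 0.559) and with TgSREBP-1a by 0.28 (adjusted p 0.418). Neither transgenic pair overlapped the SREBP wild type pair, and both comparisons use that same pair.

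The remaining mitoribosome ends were spread over other genes. Mrpl54 was the highest with Scap loss (0.40, SE 0.17, unadjusted p 0.0439), from 3.83 and 3.28 on the Scap-/- arrays and 2.97 and 3.35 in Scap wild type, which overlapped. Mrpl39, one of the genes with the NRF1 letters, measured 4.50 and 5.08 in SREBP wild type, 4.59 and 4.76 in TgSREBP-1a and 5.16 and 5.04 in TgSREBP-2. It was the highest with TgSREBP-2 (0.31) and the lowest between the transgenics (-0.42, SE 0.16, adjusted p 0.521). Mrps18a was the highest between the transgenics (0.26), and Mrpl35 the lowest between the wild types (-0.26).

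The import genes had the smallest median range of group means of the 3 subgroups, and none had an F-test p under 0.05. Tomm70a, the outer membrane receptor that takes over precursors from cytosolic chaperones, had the highest F statistic of the 7 (p 0.143, adjusted p 0.623). It measured 5.30 and 4.95 in Scap-/-, 5.28 and 4.87 in Scap wild type, 5.12 and 4.60 in SREBP wild type, 4.85 and 4.96 in TgSREBP-1a and 5.39 and 5.28 in TgSREBP-2. The TgSREBP-2 pair was above SREBP wild type and TgSREBP-1a without overlap. The difference from SREBP wild type was 0.47 (SE 0.18, adjusted p 0.749) and that between the transgenics -0.43 (adjusted p 0.578). A much dimmer probe set of Tomm70a went the other way against SREBP wild type, at -0.26 (SE 0.16), the widest disagreement between probe sets of one of the 57 genes. Tomm70a was also the highest import gene between the wild types (0.21).

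Timm50, the inner membrane receptor whose RefSeq start carries the YY1 letters, measured 3.11 and 3.21 in Scap-/-, 2.96 and 2.93 in Scap wild type, 3.27 and 2.99 in SREBP wild type, 3.16 and 3.11 in TgSREBP-1a and 3.15 and 2.99 in TgSREBP-2. The Scap wild type pair was the lowest and overlapped no other group. Timm50 was the highest import gene with Scap loss (0.22, adjusted p 0.999, limma) and the lowest between the wild types (-0.19). Its F test over the 5 groups gave adjusted p 0.775. Tomm40 measured 9.49 and 9.73, 9.60 and 9.65, 9.62 and 9.81, 9.63 and 9.97, and 9.89 and 9.72 from Scap-/- to TgSREBP-2 (F-test adjusted p 0.819). The groups overlapped, and replicate 2 was the higher in all but TgSREBP-2. The remaining ends were small. Timm17b was the lowest with Scap loss (-0.05) and with TgSREBP-2 (-0.09) and the highest between the transgenics (0.07). Tomm22 was the highest (0.11) and Tomm20, a receptor for presequences, the lowest (-0.12) with TgSREBP-1a.

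Of the 57 genes 12 had further probe sets, 17 in all, and none of those was called. In no gene did the probe sets differ by 1 or more (log2) in a comparison. Mrpl15, a large-subunit protein with 4 probe sets, was the case where a second probe set came nearest to a call. Its second-brightest was 0.45 lower with TgSREBP-2 than in SREBP wild type (adjusted p 0.176) and 0.39 lower with TgSREBP-1a (adjusted p 0.0853), while the brightest gave 0.08 and 0.02. For Sdhaf2, an assembly factor of complex II, the brighter probe set gave -0.02 with TgSREBP-1a and the dimmer one 0.65 (SE 0.27).

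Other nuclear genes for mitochondria were scored from lists by function. One of them was called: Coq8a, a kinase-like protein needed for coenzyme Q synthesis, rose with TgSREBP-1a from 4.49 ± 0.12 to 5.12 ± 0.14 (SD, n = 2), a log2 difference of 0.63 (SE 0.13, adjusted p 0.0393, limma). The call was lost without any 1 of 6 of the 10 arrays, with adjusted p from 0.0694 to 0.376 and differences of 0.53 to 0.73. These were the 2 arrays each of SREBP wild type, TgSREBP-1a and TgSREBP-2. With TgSREBP-2 the Coq8a difference was 0.29 (adjusted p 0.785), and the difference between the transgenics was 0.35 (adjusted p 0.475), so the transgenes were not shown to differ. The other 3 measured of the 21 cytochrome c and coenzyme Q genes were not called, and the lowest was Pdss2 (-0.12 with TgSREBP-2).

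No gene of the remaining lists was called in any of the 5 comparisons. Of the citric acid cycle and pyruvate dehydrogenase genes 10 of 24 were measured, and the ends were Idh3b, a subunit of isocitrate dehydrogenase (0.76 between the wild types, adjusted p 0.636), and Dlst, of the oxoglutarate dehydrogenase complex (-0.38 with TgSREBP-1a, adjusted p 0.139). Of other assembly factors 8 of 37 were measured, from -0.19 for Cmc1 to 0.35 for Timmdc1. Of mitochondrial translation factors 11 of 46 were measured, from -0.19 for Tsfm to 0.40 for Dhx30. Of other import and protein quality genes 9 of 31 were measured, from -0.27 for the protease subunit Clpx to 0.20 for the matrix chaperone Hspa9. Of regulators of mitochondrial biogenesis 9 of 28 were measured. Their ends were Tfam, which packages and transcribes mitochondrial DNA (0.50 with TgSREBP-1a, adjusted p 0.528), and Gabpa, the DNA-binding subunit of the ETS factor NRF2 (-0.29 between the transgenics, adjusted p 0.691). The 18 cytosolic ribosome genes, which serve as a contrast to the mitoribosome, were not called either. With TgSREBP-1a 7 of the 18 had an unadjusted p under 0.05, with differences from -0.52 to 0.92, and so had 4 of the 17 mitoribosome genes, against 9.4% of all probe sets. The difference between these counts was not tested.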

How the data were processed

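The authors deposited log2 signals of 11934 probe sets on 10 arrays, made with RMA per the submitters' processing notes (version not given in the sources used here); the series' design text names Microarray Suite 5.0. The 66 control probe sets were left out and 11868 were tested. Of these 7717 carry 1 gene symbol in the platform annotation, 150 several and 4001 none; no gene was named from a probe set with several. One linear model of the 5 group means was fitted to all 10 arrays with limma 3.58.1 in R 4.3.3 (two-sided, 5 residual degrees of freedom, Benjamini-Hochberg over all 11868). A call needed adjusted p under 0.05 and 1.5-fold; 95% intervals use the moderated SE. The procedure was tested on simulated data. RMA sets arrays to a common distribution, so a shift shared by most transcripts would not be seen. Named genes were the ends of each comparison and the highest F statistics per subgroup, the brightest and dimmest, probe sets that disagreed, and called or extreme genes of the other lists. Others with an unadjusted p under 0.05, or shown for their motifs or levels, were chosen after their values were seen, as were the windows printed. Members and lists were chosen with earlier results of these data known. Cell type marker lists were hepatocyte, acinar, Kupffer, muscle, endothelial, erythroid and brown fat; no muscle (6 measured), endothelial (4), erythroid (2) or brown fat (1) marker was called. The number of arrays limits the precision. Alternatives covered normalization, filters, probe sets, variance model, fold floor, arrays fitted, an 18S covariate, the replicate block and leaving out each array.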

Additional observations from a re-analysis of the deposited data

How the results depend on the processing

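None of the 57 genes was called in any comparison under the 24 alternatives run (23 for the wild types and for the F test), except that the F test called 1, Mrpl48 (range 0.68, adjusted p 0.0357), under a replicate block with the TgSREBP-2 numbers crossed, which was chosen after seeing the data. Unadjusted counts then ran from 0 to 13. Same-numbered arrays deviated together in part: the correlations were over 0.1 (0.20 to 0.33) in 7 of 10 pairs of groups and -0.17 to -0.11 in TgSREBP-2 with Scap-/-, Scap wild type and TgSREBP-1a. As not every pair was over 0.1, the numbers were not taken as pairs and the block stayed an alternative. With a plain replicate block no member was called, while calls over all probe sets went from 10, 123, 14, 61, 11 and 165 (F test) to 19, 186, 37, 96, 36 and 315; the smallest adjusted p of a member with it was 0.0622.

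The subgroup medians stayed small but moved by more than 1 SD between duplicates in 50 of 320 cases (comparisons with a transgene are against SREBP wild type). Of the 320 cases 200 left out 1 array, and most of those arrays belonged to groups outside the comparison. Leaving out such an array cannot change a difference of group means, so the share that moved is low by construction. The filters to brighter or to plain _at probe sets dropped genes, so their medians are over smaller sets than the main ones. The brighter filter kept 36 genes, of which 22 were respiratory, 11 mitoribosome and 3 import, and plain _at probe sets stood for 31 of the 57. With brighter probe sets alone the medians were -0.075 for the mitoribosome with Scap loss, 0.018 for all genes kept with TgSREBP-1a, and 0.047 for all and 0.042 for respiratory genes with TgSREBP-2. Between the wild types they were 0.074 for all, 0.074 for respiratory, 0.10 for mitoribosome and 0.035 for import genes. With plain _at probe sets alone they were 0.031 for all with Scap loss, and 0.038 for all, 0.029 for respiratory, 0.12 for mitoribosome and -0.011 for import genes with TgSREBP-2. They were -0.058 for the mitoribosome between the transgenics, and 0.0041 for respiratory and 0.10 for mitoribosome genes between the wild types. With probe sets averaged within a gene they were -0.0025 for respiratory genes with Scap loss, 0.018 for respiratory and -0.037 for mitoribosome genes with TgSREBP-2, and 0.0099 for respiratory genes between the wild types. With cyclic loess they were 0.020 for all and 0.0070 for respiratory genes with TgSREBP-1a, and 0.013 for all and -0.0019 for respiratory genes between the wild types.

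Leaving out each array in turn gave these ranges of the medians, for all, respiratory, mitoribosome and import genes in that order. With Scap loss they were -0.026 to 0.026, -0.026 to 0.048, -0.10 to 0.082 and -0.040 to 0.068. With TgSREBP-1a they were -0.071 to 0.011, -0.12 to -0.0032, -0.062 to 0.0093 and -0.073 to 0.059. With TgSREBP-2 they were -0.018 to 0.0088, -0.054 to -0.023, -0.022 to 0.064 and 0.017 to 0.076. Between the transgenics they were -0.043 to 0.050, -0.043 to 0.072, -0.027 to 0.045 and -0.17 to 0.039, and between the wild types -0.028 to 0.024, -0.032 to 0.030, 0.012 to 0.060 and -0.12 to 0.0096. The cause of these shifts was not tested.

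Among the named genes 5 differences, none of them called, changed sign when an array was left out. Over the arrays left out in turn, Timm17b ran from -0.16 to 0.062 with Scap loss (positive at 0.062 without Scap-/- replicate 1 and 0.037 without Scap wild type replicate 2). It ran from -0.0067 to 0.15 between the transgenics. Mrpl48 ran from -0.59 to 0.0093 and Tomm22 from -0.073 to 0.30 with TgSREBP-1a, and Tomm70a from -0.049 to 0.47 between the wild types. The sign turned without TgSREBP-1a replicate 1 for Mrpl48, without TgSREBP-1a replicate 2 for Tomm22 and for Timm17b between the transgenics, and without SREBP wild type replicate 2 for Tomm70a. The call of Coq8a with TgSREBP-1a was also lost with a 2-fold floor; its probe set was not among the brighter or the plain _at ones. No detection calls were used here, so a small difference of a dim probe set cannot be told from low signal over background.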
